A study of Danio rerio with 6 samples.

Results

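Zebrafish carry 3 kinds of pigment cell, all of them derived from the neural crest, and 10 genes that mark these cells were followed through RNA-seq of embryonic tails. Black melanophores were represented by tyr, dct, tyrp1b, pmela, mitfa and slc24a5, silvery iridophores by pnp4a and ltk, and yellow xanthophores by gch2 and xdh. The genes were looked up by symbol, without regard to case, among the 26375 gene identifiers of the count data. For 8 of the 10 symbols 1 identifier was found. The symbols tyrp1b and mitfa were not listed as such, and each was matched to the 2 identifiers listed under TYRP1 and under MITF, which the gene tables do not tell apart from their paralogs. This gave 12 identifiers. Of these, 11 had enough reads to be tested, and the exception was MITF ENSDARG00000037833, with counts of 1, 1 and 2 among siblings against 0, 2 and 1 in the mutant libraries.

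Melanophores convert tyrosine to melanin inside melanosomes. Tyrosinase (tyr) starts this conversion, dopachrome tautomerase (dct) and the tyrosinase-related proteins act further along, pmela builds the fibrils on which melanin is laid down, and slc24a5 encodes a cation exchanger needed for dark melanin. The transcription factor Mitfa specifies zebrafish melanophores. Iridophores reflect light from stacked guanine crystals, for which purine nucleoside phosphorylase (pnp4a) supplies the base, and they need the receptor tyrosine kinase Ltk. Xanthophores make yellow pteridines from GTP, with GTP cyclohydrolase (gch2) at the entry and xanthine dehydrogenase (xdh) further along. The retinal pigment epithelium also makes melanin with some of the melanophore genes.

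The libraries came from pooled tails of AB strain embryos at 3 dpf (days post fertilisation), including the caudal hematopoietic tissue, the embryonic site of blood stem cell expansion. The heads had been removed for genotyping. There were 3 libraries of siblings, whose labelled genotype is mettl16+/+, and 3 of mettl16-/- embryos from a line made with CRISPR/Cas9, whose mutation in the gene of the RNA m6A methyltransferase Mettl16 is present in all cells. Each group was numbered 1 to 3 in the labels, which do not say what a number stands for. The methods name phenylthiourea, a blocker of melanin formation, for use where needed and do not say whether these embryos received it.

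The libraries held 16239791 to 18541402 counts, and the 10 most abundant genes took 17.8% to 21.0% of them. The targeted gene mettl16 was lower in each mettl16-/- library (4.0, 3.28 and 5.15 CPM for numbers 1, 2 and 3) than in each sibling library (6.13, 6.17 and 7.01 CPM), where CPM are the usual library-scaled counts, here with TMM scaling. Its log2 fold change was -0.63 (SE 0.211), with an adjusted p of 1.0 in edgeR, and 0.0683 when replicate number was added as a block. Libraries that share a number deviated together from their group means (r = 0.586, 0.312 and 0.518 across genes), whereas libraries of different numbers did not (r = -0.446 to -0.0362). Deviations sum to 0 within a group, so the negative values follow in part from the positive ones.

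No pigment cell gene passed the test between mettl16-/- embryos and siblings. Of the 11 tested identifiers 0 had an adjusted p under 0.05 in edgeR, and 0.124% of the 18487 genes tested did. At an unadjusted p under 0.05 the counts were 0 of 11 and 2.17% of all genes, and DESeq2 also called 0 of 11 (0.325% of all genes). The groups overlapped for each of the 12 identifiers. Fold changes ran from -0.22 for tyr to 0.26 for ltk on the log2 scale (SE 0.114 to 0.476), with a median of 0.03 beside -0.0032 for all genes tested. The plot shows fold changes with their 95% intervals from this fit, which leaves out replicate number. There 9 of the 11 intervals stay within 1 log2 unit of 0, so that a change of 2-fold lies outside them. Those of slc24a5 (-1.17 to 0.95) and ltk (-0.61 to 1.14) do not stay within it. When replicate number was added as a block, standard errors were 0.0591 to 0.388, and again 0 of 11 were called, against 1.04% of all genes, with 0.677 as the lowest adjusted p in edgeR. With the block, the log2 fold change was 0.30 (SE 0.179) for ltk and -0.07 (SE 0.388) for slc24a5. Intervals of the block fit are not given here. At an unadjusted p under 0.05 this fit had 0 of 11, against 9.20% of all genes.

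**Figure D1:**
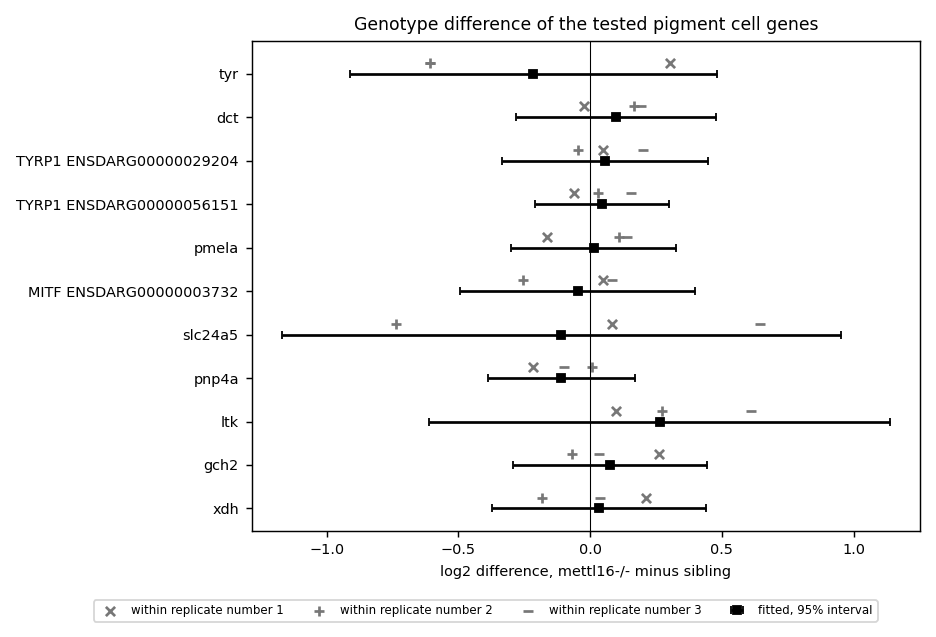
Genotype difference of the 11 tested pigment cell identifiers. The horizontal axis is the log2 difference of mettl16-/- minus sibling. Black squares with bars are edgeR fold changes with 95% intervals, from the fit without the replicate block. Grey marks are the differences within replicate numbers 1, 2 and 3. All bars cross 0, and those of slc24a5 and ltk reach past 1 log2 unit on at least 1 side.

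Among the melanophore genes, tyr had the lowest fold change, and its libraries disagreed. Siblings 1, 2 and 3 had 7.90, 7.61 and 6.17 CPM, and mettl16-/- libraries 1, 2 and 3 had 9.76, 4.95 and 4.01 CPM. The mettl16-/- libraries thus held both the highest and the lowest levels, around a mean of 6.24 ± 3.08 CPM (SD, n = 3) beside 7.23 ± 0.926 CPM (SD, n = 3) in siblings. Within numbers 1, 2 and 3 the mutant library differed by 0.30, -0.61 and -0.61 on the log2 scale. The fitted fold change ran from -0.69 to 0.02 as each library was left out in turn, and its adjusted p was 0.716 in edgeR with the block. The gene lies on the chromosome of mettl16 in the GRCz12tu assembly, which the other 9 do not, and whether this position affects its level was not tested.

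The iridophore receptor gene ltk had the highest fold change. Its levels were 7.01, 3.80 and 2.52 CPM in siblings 1, 2 and 3, and 7.51, 4.62 and 3.89 CPM in mettl16-/- libraries 1, 2 and 3. Each mutant library was above the sibling library of its number, by 0.10, 0.27 and 0.61 on the log2 scale. The adjusted p was 1.0 in edgeR and 0.679 in edgeR with the block, and the fold change ran from -0.06 to 0.75 as each library was left out. For slc24a5, whose counts were 9 to 32 per library, the differences within numbers were 0.08, -0.74 and 0.64 and so had no common sign.

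Replicate number, by contrast, separated most of these genes. In a fit with genotype as a term, 9 of the 11 identifiers differed among numbers 1, 2 and 3 at an adjusted p under 0.05 in edgeR, against 24.7% of all genes tested, and the same 9 had an unadjusted p under 0.05, against 37.1%. The 2 that were not called were MITF ENSDARG00000003732 (adjusted p = 0.693) and slc24a5 (adjusted p = 0.194). With DESeq2 on the same genes 5 of 11 were called, against 9.53% of all genes, and these were dct, TYRP1 ENSDARG00000029204, pmela, ltk and gch2. Without the genotype term edgeR called 7 of 11, against 19.4% of all genes. In bulk tissue, fewer cells of a type and less RNA per cell cannot be told apart.

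The direction was mostly the same. At an adjusted p under 0.05 in edgeR, number 3 was called lower than number 1 for 7 of 11 identifiers (10.9% of all genes). It was called higher for 0 of 11 (10.4% of all genes). Number 2 was called lower than number 1 for 4 of 11 (7.51% of all genes) and higher for 0 (6.52%). Called or not, the difference was below 0 for 9 of 11 in number 3 minus 1. It was below 0 for 10 of 11 in 2 minus 1 and 9 of 11 in 3 minus 2. Between numbers 3 and 2 the calls were divided, with 2 of 11 higher in number 3 (4.73% of all genes) and 2 lower (3.35%). The median difference over the 11 identifiers was -0.28 for number 2 minus 1, -0.46 for 3 minus 1 and -0.24 for 3 minus 2 on the log2 scale, beside 0.0003, 0.016 and -0.0024 for all genes. Both libraries of number 1 lay above all others for 6 of 11 identifiers (17.4% of all genes), and both of number 3 lay below all others for 4 of 11 (13.5%). Number 2 was the lowest for 2 of 11 (9.29%) and the highest for 0 (9.53%), and number 3 was the highest for 1 of 11 (14.5%) and number 1 the lowest for 0 (16.7%).

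**Figure D2:**
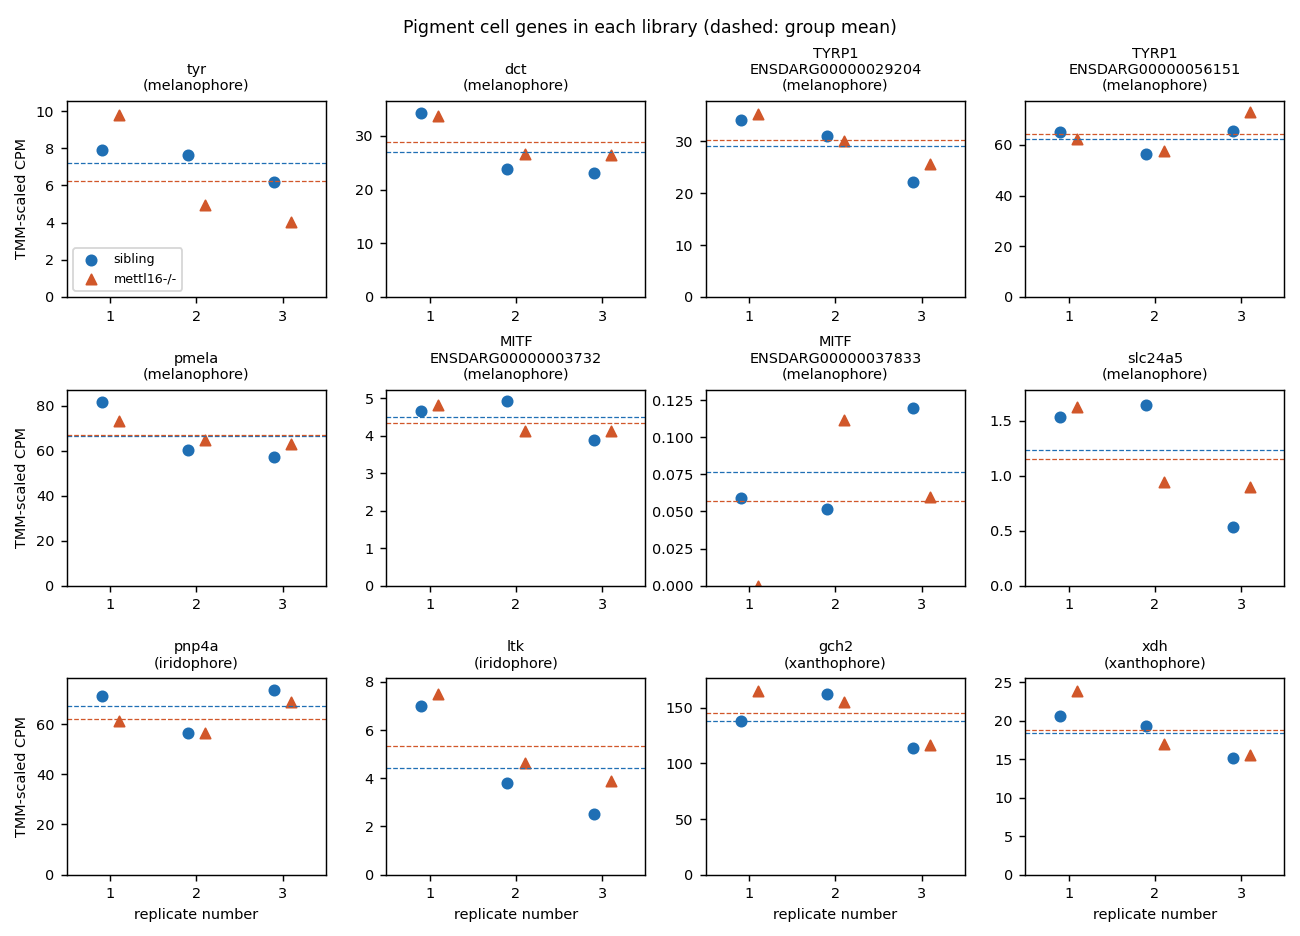
Level of each of the 12 pigment cell identifiers in each of the 6 libraries. The vertical axis of each panel is TMM-scaled CPM from 0, the horizontal axis is the replicate number, circles are siblings, triangles are mettl16-/- embryos, and dashed lines are group means (n = 3). For dct, pmela and ltk the circle and the triangle of number 1 both lie above the other 4 symbols.

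Like tyr and TYRP1 ENSDARG00000029204, the melanin enzyme gene dct was highest in both libraries of number 1. It had 34.2, 23.8 and 23.1 CPM in siblings 1, 2 and 3, and 33.7, 26.7 and 26.4 CPM in mettl16-/- libraries 1, 2 and 3. Numbers 2 and 3 lay together below number 1, by 0.43 (SE 0.0985) and 0.46 (SE 0.0998) on the log2 scale, whereas number 3 minus 2 was -0.03 (95% interval -0.24 to 0.18). The adjusted p for any difference was 0.00115 in edgeR. For tyr, given above, number 3 minus 1 was -0.81 (SE 0.217, adjusted p = 0.00877 in edgeR), and number 2 minus 1 was -0.51 and did not pass (adjusted p = 0.109). Its adjusted p for any difference, 0.0187 in edgeR, was 0.199 in DESeq2, and without mettl16-/- 1 or mettl16-/- 3 it was 0.474 or 0.186 in edgeR. Number 3 minus 1 for tyr ran from -1.28 without sibling 1 to -0.36 without mettl16-/- 1.

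The 2 identifiers listed as TYRP1 differed in opposite directions between numbers 3 and 2. Between numbers 2 and 1 both were lower in number 2, by -0.19 for ENSDARG00000029204 and -0.16 for ENSDARG00000056151, and neither was called. TYRP1 ENSDARG00000029204 had 34.2, 31.0 and 22.2 CPM in siblings 1, 2 and 3 and 35.3, 30.0 and 25.6 CPM in mettl16-/- libraries 1, 2 and 3, so that both libraries of number 1 were highest and both of number 3 lowest. It differed by -0.54 (SE 0.0989) between numbers 3 and 1 and by -0.35 (SE 0.0990) between numbers 3 and 2 on the log2 scale (adjusted p = 2.59e-04 and 0.0255 in edgeR). TYRP1 ENSDARG00000056151 had 64.9, 56.5 and 65.4 CPM in siblings 1, 2 and 3 and 62.2, 57.7 and 72.9 CPM in mettl16-/- libraries 1, 2 and 3. Here number 3 was highest and number 2 lowest, with 0.28 (SE 0.0763) for number 3 minus 2 (adjusted p = 0.0240 in edgeR). Since the way reads shared by paralogs were counted is not stated, the split between the 2 identifiers is uncertain. The first kept its call for any difference in DESeq2 (adjusted p = 0.0204) and the second did not (adjusted p = 0.300). Without sibling 3 the adjusted p of the first was 0.0591 in edgeR, and without sibling 2, mettl16-/- 2 or mettl16-/- 3 that of the second was 0.139, 0.0917 or 0.259.

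The fibril gene pmela followed the pattern of dct. Siblings 1, 2 and 3 had 81.8, 60.2 and 57.1 CPM, and mettl16-/- libraries 1, 2 and 3 had 73.1, 65.0 and 62.9 CPM. Both libraries of number 1 were above the other 4, and numbers 2 and 3 differed from number 1 by -0.31 (SE 0.0792) and -0.37 (SE 0.0800) on the log2 scale (adjusted p = 0.00895 and 0.00146 in edgeR). Without sibling 1, the highest library, the adjusted p for any difference was 0.277 for pmela and 0.138 for dct in edgeR, and number 3 minus 1 for pmela was -0.22.

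The exchanger gene slc24a5 and the regulator gene listed as MITF were the least deeply counted of the tested melanophore genes. Counts of slc24a5 were 26, 32 and 9 in siblings 1, 2 and 3, and 26, 17 and 15 in mettl16-/- libraries 1, 2 and 3. Number 3 was lowest in both groups, at -1.12 against number 1 (95% interval -2.13 to -0.12), and the adjusted p of this difference was 0.107 in edgeR. MITF ENSDARG00000003732 had 4.66, 4.94 and 3.89 CPM in siblings 1, 2 and 3 and 4.82, 4.12 and 4.13 CPM in mettl16-/- libraries 1, 2 and 3. Its highest library exceeded its lowest by 1.27-fold, the smallest range among the 11 tested identifiers, and its difference of number 3 minus 1 was -0.24 (95% interval -0.71 to 0.23).

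**Figure D3:**
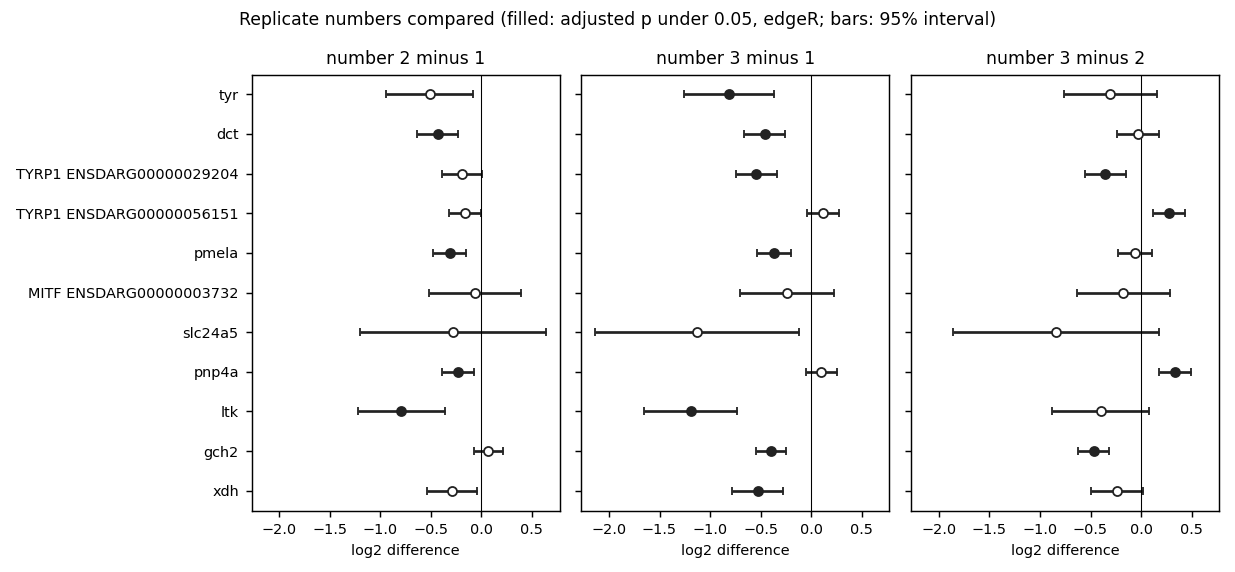
Differences between replicate numbers for the 11 tested identifiers, with number 2 minus 1, 3 minus 1 and 3 minus 2 in separate panels. The horizontal axes are log2 differences from edgeR with genotype as a term, bars are 95% intervals, and filled points have an adjusted p under 0.05. In the middle panel 7 filled points lie below 0 and none above.

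Both iridophore genes were lower in number 2 than in number 1, and number 3 was called lower than number 1 for ltk alone. For ltk the levels given above put number 1 on top in both groups, with -0.79 (SE 0.210) for number 2 minus 1 and -1.19 (SE 0.221) for number 3 minus 1 on the log2 scale (adjusted p = 0.0115 and 3.08e-04 in edgeR), and the highest library exceeded the lowest by 2.98-fold. For pnp4a, siblings 1, 2 and 3 had 71.4, 56.4 and 73.7 CPM, and mettl16-/- libraries 1, 2 and 3 had 61.4, 56.6 and 68.7 CPM. Both libraries of number 2 were the lowest, with -0.23 (SE 0.0765) for number 2 minus 1 (adjusted p = 0.0416 in edgeR), 0.33 (SE 0.0762) for number 3 minus 2 (adjusted p = 0.00623 in edgeR) and 0.10 (95% interval -0.06 to 0.26) for number 3 minus 1. In DESeq2 the adjusted p for any difference was 0.0219 for ltk and 0.108 for pnp4a. Left-out libraries ended the edgeR call of ltk without sibling 1 (adjusted p = 0.0560) and that of pnp4a without sibling 2 (0.190) or mettl16-/- 3 (0.0556).

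Both xanthophore genes were lowest in number 3. Siblings 1, 2 and 3 had 138, 163 and 114 CPM of gch2, and mettl16-/- libraries 1, 2 and 3 had 166, 155 and 116 CPM. Numbers 1 and 2 overlapped, and number 3 lay below both, by -0.40 (SE 0.0729) against number 1 and -0.47 (SE 0.0725) against number 2 on the log2 scale (adjusted p = 2.7e-04 and 1.38e-04 in edgeR). The call of gch2 for any difference (adjusted p = 5.9e-05) was kept in DESeq2 (adjusted p = 1.22e-04) and with each library left out in turn, where the highest adjusted p was 0.0244 in edgeR. Without mettl16-/- 1, its difference of number 3 minus 1 was -0.25 and did not pass. For xdh, siblings 1, 2 and 3 had 20.6, 19.3 and 15.2 CPM, and mettl16-/- libraries 1, 2 and 3 had 23.8, 17.0 and 15.6 CPM. Number 1 was highest and number 3 lowest, with -0.53 (SE 0.123) for number 3 minus 1 (adjusted p = 0.00273 in edgeR). The adjusted p of xdh for any difference, 0.00705 in edgeR, was 0.131 in DESeq2, and without sibling 3, mettl16-/- 1 or mettl16-/- 3 it was 0.0729, 0.201 or 0.0765 in edgeR.

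A wider list of pigment genes, with 59 identifiers of which 52 were tested, was not lower in number 3 than in number 1 as a whole. Its median difference of number 3 minus 1 was 0.013 on the log2 scale. For any difference among numbers 13 of the 52 were called in edgeR and 6 in DESeq2, again beside 24.7% and 9.53% of all genes. By cell type the edgeR calls were 1 of 11 melanophore genes, 7 of 15 iridophore genes, 3 of 19 xanthophore genes and 2 of 7 genes shared by the neural crest. In this order, number 3 minus 1 was below 0 for 4 of 11, 5 of 15, 13 of 19 and 3 of 7. The medians were 0.074, 0.044, -0.125 and 0.024 on the log2 scale. For identifiers of the 10 genes, it was below 0 for 6 of 7 melanophore (median -0.46), 1 of 2 iridophore and 2 of 2 xanthophore identifiers. In the pair of numbers 3 and 1, 6 of the 52 were called higher in number 3 (10.4% of all genes were) and 7 lower (10.9%), shares near those of all genes.

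Among the genes listed for iridophores the purine pathway was divided, and in whole tails its reads need not come from iridophores. Of 9 tested identifiers of purine synthesis 4 were called for any difference among numbers, against 24.7% of all genes, with ATIC (-0.40 for number 3 minus 1), PFAS (-0.31) and PAICS (-0.23) lower in number 3 and ADSL (0.21) higher, all on the log2 scale, and GART, PPAT, GMPS and both IMPDH1 identifiers were not called. The nucleoside phosphorylase gene pnp4b, a paralog of pnp4a, had 10.1, 13.5 and 19.8 CPM in siblings 1, 2 and 3 and 9.64, 12.9 and 19.4 CPM in mettl16-/- libraries 1, 2 and 3. Both groups thus showed number 3 highest, with 0.99 (SE 0.132) against number 1, an adjusted p for any difference of 1.39e-05 in edgeR and 3.43e-04 in DESeq2. The genes apoda.1 (0.62) and defbl1 (0.38) were also higher in number 3 than in number 1 in edgeR, with adjusted p for any difference of 0.0551 and 0.202 in DESeq2. The edgeR call ended with 2 of the 6 libraries left out in turn for PAICS and ADSL, 3 for PFAS and 4 for defbl1. The highest adjusted p were 0.663 for PAICS, 0.251 for PFAS and 0.139 for ADSL without mettl16-/- 3, and 0.114 for defbl1 without sibling 3, in edgeR. As each library was left out, number 3 minus 1 ran from -0.37 to -0.084 for PAICS and from 0.089 to 0.33 for ADSL, and in DESeq2 the adjusted p for any difference was 0.110 for PAICS and 0.197 for PFAS.

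Among the xanthophore genes, SPR ENSDARG00000058553 and csf1ra had the lowest p for any difference among numbers. SPR ENSDARG00000058553, listed for sepiapterin reductase of the pteridine pathway, had 9.49, 4.78 and 2.40 CPM in siblings 1, 2 and 3 and 8.38, 7.68 and 1.86 CPM in mettl16-/- libraries 1, 2 and 3. Number 3 was lowest and number 1 highest in both groups, with -2.07 (SE 0.247) for number 3 minus 1 (adjusted p for any difference 3.58e-06 in edgeR). The other identifier listed as SPR, ENSDARG00000004406, had 7.04 to 10.2 CPM and was not called (-0.13 for number 3 minus 1, adjusted p for any difference 0.837 in edgeR). Which of them is the xanthophore gene is not told apart here. The receptor gene csf1ra, which xanthophores and macrophages both use, had 4.83, 1.85 and 2.16 CPM in siblings 1, 2 and 3 and 4.57, 2.28 and 1.20 CPM in mettl16-/- libraries 1, 2 and 3. Only number 1 was set apart, with -1.49 (SE 0.310) for number 3 minus 1, and without mettl16-/- 1 its adjusted p for any difference was 0.0601 in edgeR. QDPR ENSDARG00000040190, listed for dihydropteridine reductase, went the other way (0.54 for number 3 minus 1, adjusted p for any difference 0.00519 in edgeR, 0.129 in DESeq2 and 0.128 in edgeR without sibling 3). QDPR ENSDARG00000037378 was not called (0.36 for number 3 minus 1, adjusted p for any difference 0.291 in edgeR).

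Of the remaining lists, only GPNMB was called among melanophore genes (0.29 for number 3 minus 1, adjusted p for any difference 0.0237 in edgeR, 0.256 in DESeq2 and 0.286 in edgeR without sibling 3). OCA2 and tspan36, next in order of p, had adjusted p of 0.184 and 0.290 in edgeR. Among neural crest genes, crestin, a marker of crest cells in zebrafish embryos, was lowest in number 3 (-0.49 against number 1, adjusted p for any difference 4.76e-04 in edgeR and 0.0171 in DESeq2). The crest regulator snai2 was lowest in number 2 (-0.39 against number 1, adjusted p for any difference 0.00391 in edgeR, 0.101 in DESeq2 and 0.0541 in edgeR without sibling 2), and TFAP2A was not called (adjusted p = 0.126 in edgeR). SOX10, the crest factor that all 3 pigment lineages need, had 33.5, 33.5 and 34.0 CPM in siblings and 27.1, 32.3 and 36.7 CPM in mettl16-/- libraries (adjusted p = 0.220 in edgeR).

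**Figure D4:**
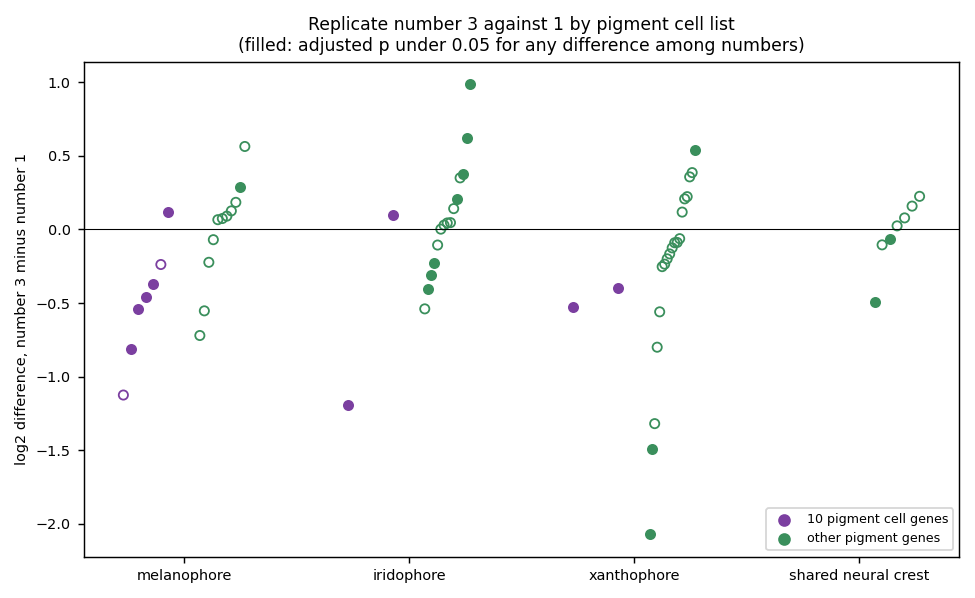
Difference of replicate number 3 minus 1 for each tested pigment gene, by cell type. The vertical axis is the log2 difference from edgeR, purple points are the 10 pigment cell genes and green points the wider list, and filled points have an adjusted p under 0.05 for any difference among numbers. Purple points lie mostly below 0, whereas green points of each cell type lie on both sides.

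Between genotypes, 0 of the 52 wider pigment genes were called in edgeR, with or without the replicate block, and 0 in DESeq2. Fold changes were above 0 for 21 and below 0 for 31, with a median of -0.05 on the log2 scale. At an unadjusted p under 0.05 there were 1 of 52, against 2.17% of all genes, and 6 of 52 with the block, against 9.20% of all genes. The former was MLPH, listed for melanophilin, an adaptor of melanosome transport. It had 11.1, 10.5 and 10.5 CPM in siblings 1, 2 and 3 and 13.6, 17.3 and 13.1 CPM in mettl16-/- libraries 1, 2 and 3, so that the groups did not overlap (3.46% of all genes were higher in mettl16-/- without overlap and 3.43% lower). Its fold change was 0.45 (SE 0.148) on the log2 scale in edgeR without the block, where it was not called. With the block the SE was 0.118 and the adjusted p 0.0657 in edgeR, which did not pass either. The other 2 without overlap were GPR143, a melanosome receptor gene (-0.39, SE 0.214), and PAX3 ENSDARG00000028348 (0.72, SE 0.419), neither of them called.

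Marker lists of other tissues were examined in the same libraries. The retina and lens list had 21 identifiers, of which 0 were at 0 in all libraries, with a summed level of 35.0 to 40.5 CPM in siblings and 40.2 to 95.6 CPM in mettl16-/- libraries. RPE65 ENSDARG00000094752 alone gave 17.1 to 30.4 CPM of these sums. The highest sum was that of mettl16-/- 1, where CRYBB1 had 48.9 CPM, against at most 1.74 CPM in any other library. Of its 9 tested identifiers 5 were called for replicate number in edgeR, against 24.7% of all genes. Some of them had few reads outside the libraries where they were high, so being tested and being called were not independent. ARR3 ENSDARG00000056511, for example, had 13, 0 and 32 counts in siblings 1, 2 and 3 and 3, 2 and 78 in mettl16-/- libraries. The cone opsin gene opn1lw2 had 26, 3 and 68 counts in siblings 1, 2 and 3 and 6, 1 and 190 in mettl16-/- libraries 1, 2 and 3, whereas the lens crystallin gene CRYBB1 had 6, 0 and 29 counts in siblings and 781, 0 and 4 in mettl16-/- libraries. RPE65 ENSDARG00000094752, listed for the retinoid isomerase of the pigment epithelium, had 412, 517 and 286 counts in siblings 1, 2 and 3 and 408, 547 and 311 in mettl16-/- libraries, with number 2 highest. Other identifiers listed as RPE65 had fewer, with 1 to 12 counts per library for ENSDARG00000007480 and 20 to 51 for ENSDARG00000054420. Which of them is the pigment epithelium gene is not told apart here. The part of the retina and lens genes in the pigment gene results was not tested.

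Of genes of myelinating glia, mbpa had 243, 259 and 376 counts in siblings 1, 2 and 3 and 216, 228 and 384 counts in mettl16-/- libraries 1, 2 and 3. For plp1b the counts were 112, 110 and 164 among siblings and 85, 144 and 170 in the mutant libraries. Both were higher in number 3 than in number 1 in edgeR, by 0.71 and 0.74 on the log2 scale. Tail Hox genes summed to 50.6 to 60.5 CPM in siblings and 49.4 to 57.6 CPM in mettl16-/- libraries, and 1 of 7 was called for replicate number. Skeletal muscle genes summed to 73100 to 96422 CPM in siblings and 85642 to 98705 CPM in mettl16-/- libraries, with 4 of 5 called for number. In the same test, which called 24.7% of all genes, 4 of 7 liver and 4 of 6 intestine genes were called. The calls were 1 of 5 blood and 2 of 8 forebrain and midbrain genes, shares near that of all genes. Between genotypes, edgeR with the replicate block called 3 of 7 liver and 1 of 5 skeletal muscle genes, against 1.04% of all genes. The fold changes were below 0 for all 7 liver genes and above 0 for all 5 muscle genes. Without the block 0 of either list were called. Whether the mix of tissues accounts for any of the pigment gene differences was not tested.

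The mean of tyr, dct, both TYRP1 identifiers, pmela and slc24a5 was taken in each library, in deviations of log2 CPM from the mean of 6 libraries. It was 0.26, 0.05 and -0.30 in siblings 1, 2 and 3, and 0.29, -0.13 and -0.18 in mettl16-/- libraries 1, 2 and 3. Among all tested genes outside the lists, the 5 nearest to this mean were pln2, pdlim4, ctnnd2b, KDM6B and si:dkey-69o16.5, with root mean square differences of 0.0250 to 0.0432 over the 6 libraries. Of these, pln2 had 23 to 34 counts per library and was not called for replicate number (adjusted p = 0.509 in edgeR). The others were called (adjusted p from 2.75e-04 to 0.0150 in edgeR), against 24.7% of all genes. All 5 were picked for nearness to a mean that was itself highest in number 1 and lowest in number 3. Their calls for replicate number thus follow largely from that choice and are no separate result. The 6 melanin identifiers did not all share the pattern of their mean. TYRP1 ENSDARG00000056151 was highest in number 3. Of the 18487 tested genes, 11058 were nearer to the mean than was the farthest of the 6 identifiers. A gene with the same level in all 6 libraries would have a root mean square difference of 0.222, so this count takes in genes that hardly varied. With 6 libraries, such nearness is a description of these libraries only.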

How the data were processed

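The authors extracted RNA from pooled tails, sequenced it on an Illumina HiSeq platform, filtered reads with fastp, removed ribosomal RNA reads, mapped the rest with HISAT2 to GRCz11 and assembled transcripts with StringTie. They deposited whole-number read counts per gene, not normalized; the counting tool and its use of strand are not given in the sources used here. Gene names were found for 23499 of 26375 identifiers and not for 2876. The pigment genes and lists were chosen with earlier results of these data known.

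Tests on these counts used edgeR 4.0.16 under R 4.3.3 (TMM scaling, filterByExpr by genotype, robust glmQLFit, glmQLFTest; Benjamini-Hochberg over 18487 genes; 3 libraries per group, 2 per number), with simulated data used to test the scripts. Named are the 10 genes, mettl16, and the 5 genes nearest to the mean of the melanin genes. Wider pigment genes with an adjusted p under 0.05 in the genotype or the number test are named as well. Of those among the 3 lowest p of a list in either test, some but not all are named. GART, PPAT, GMPS and both IMPDH1 identifiers were named outside this rule, as uncalled genes of purine synthesis. The marker genes of other tissues and the uncalled SPR and QDPR identifiers were named after their values were seen. Within-number log2 differences are of CPM plus 0.1. Libraries of 1 number deviated together, so the numbers were taken to pair the libraries. P-values measure only the spread between these pooled libraries, which nothing in the labels says came from separate crosses. Alternatives were DESeq2 1.42.0 with and without a filter, its size factors, no filter or a mean of 50 counts in edgeR, robust=FALSE, the replicate block, no genotype term, and each library left out. Sequences and promoter motifs were not analysed here, and levels were not compared between genes, as lengths were not used. A marker gene and the summed level of its list are not reported here.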

Additional observations from a re-analysis of the deposited data

How the results depend on the processing

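No alternative or left-out library gave a genotype call for the 11 pigment cell identifiers or the wider pigment list (0 throughout). Over all genes the genotype count was 23, and it was 60 in DESeq2, 61 in DESeq2 with no filter, 193 with the replicate block and 3 to 21 with each library left out. For replicate number, 9 pigment cell identifiers were called, and 5 in DESeq2, 4 in DESeq2 with no filter and 5 to 8 with each library left out, the fewest without mettl16-/- 3. Of the wider list 13 were called, and 6 in DESeq2, 6 in DESeq2 with no filter and 8 to 15 with each library left out, the fewest without mettl16-/- 1. Over all genes 4570 were called, and 1761, 1636 and 2629 to 5318. The causes were not tested.

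Leaving out a library turned the sign of genotype fold changes that were not called. The log2 ranges were -0.69 to 0.021 for tyr, -0.023 to 0.30 for dct, -0.10 to 0.19 for TYRP1 ENSDARG00000029204, -0.054 to 0.12 for TYRP1 ENSDARG00000056151, -0.082 to 0.19 for pmela, -0.14 to 0.028 for MITF ENSDARG00000003732, -0.46 to 0.15 for slc24a5, -0.059 to 0.75 for ltk, -0.045 to 0.22 for gch2 and -0.17 to 0.15 for xdh. The same held for number 2 minus 1 of MITF ENSDARG00000003732 (-0.23 to 0.082), slc24a5 (-0.90 to 0.21) and gch2 (-0.067 to 0.21), and for number 3 minus 2 of dct (-0.095 to 0.032) and pmela (-0.14 to 0.023).

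In DESeq2 the calls of number 3 against 1 were lost for tyr and xdh, those of number 2 against 1 were lost for dct, pmela, pnp4a and ltk, and of the calls of number 3 against 2 only that of gch2 was kept. Some calls were also lost in edgeR alternatives that used all libraries. Over the 7 alternatives with all libraries, number 2 against 1 was lost in 4 for pnp4a. Number 3 against 2 was lost in 3 for each TYRP1 identifier. In edgeR the call of number 3 against 1 was lost without sibling 1 or sibling 3 for dct and pmela, without mettl16-/- 1 or mettl16-/- 3 for tyr, without sibling 3, mettl16-/- 1 or mettl16-/- 3 for xdh and without mettl16-/- 1 for gch2. That of number 2 against 1 was lost without sibling 1 or sibling 2 for dct and pmela, without these or mettl16-/- 1 for ltk, and without any library but mettl16-/- 2 for pnp4a. That of number 3 against 2 was lost without sibling 2, sibling 3 or mettl16-/- 3 for TYRP1 ENSDARG00000029204 and pnp4a, and without these or mettl16-/- 2 for TYRP1 ENSDARG00000056151. Each number holds 2 libraries, so leaving out 1 leaves a lone library that is assumed to vary like the others. At 9 to 32 counts per library, slc24a5 had the widest intervals, and its differences are limited by depth.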
